A study of Mus musculus with 3 samples.

Results

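The forkhead, SOX and Kruppel-like factor genes were examined in mpkDCT4a cells, an immortalised mouse kidney line labelled as distal convoluted tubule, where a cotransporter blocked by thiazides reclaims sodium chloride. Members were the protein-coding genes with symbols of the Foxa to Foxs, Sox and Klf series, without Foxm1, Sox9 and Klf9, and they came to 77 of 55487 genes in the count table: 43 forkhead, 18 SOX and 16 Kruppel-like genes. The 3 libraries, of RNA depleted of ribosomal RNA, formed 1 group, for which the labels give no genetic change and no treatment beyond the medium, so the data give levels and no effect of a treatment. Cells were grown at 37 °C with serum (2%), epidermal growth factor (10 ng/ml), the glucocorticoid dexamethasone (50 nM), glucose (20 mM), insulin (5 µg/ml), triiodothyronine (1 nM), transferrin and selenate, and all 3 libraries share that medium. The labels name 1 immortalised line, so these levels describe that line. Whether the replicates were separate cultures is not in the labels, so a p-value here reflects the spread among these libraries alone, and that spread may be technical.

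Library totals were 436983, 482418 and 443192 counts, and a single count equals 2.31, 2.07 and 2.24 CPM, the count scaled to a common library size. A gene is called detected from here on at a mean of at least 1 CPM, and 0 counts over all libraries leave a level of up to 2.20 CPM (3 counts of the summed library sizes). Of all protein-coding genes 50.6% were detected, the share to set beside each list below. Levels are mean ± SD over 3 libraries. Intervals and limits cover counting error only. Of 12 markers of the distal convoluted tubule 5 were detected, with summed levels of 66.3 to 94.1 CPM per library. The highest were Wnk4 (45.2 ± 11.2 CPM) and Cnnm2 (19.8 ± 3.23 CPM). The cotransporter gene Slc12a3, which defines the segment, and the marker parvalbumin (Pvalb) were among the 7 with 0 counts.

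Forkhead factors bind DNA through a winged helix, SOX factors bend it through a high mobility group box, and Kruppel-like factors read GC-rich and CACCC sequences through zinc fingers. The FOXO subfamily is held out of the nucleus by insulin signalling through AKT, and other forkhead genes direct organ formation. SOX factors are known for setting cell fate, among them those of the SOXC group in nephron formation, and Kruppel-like factors for control of growth, differentiation and metabolism in epithelia.

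Of the 77 members 36 were detected (46.8%), against 50.6% of the 21974 protein-coding genes. Kruppel-like genes were detected most often, at 12 of 16 (75%), against 17 of 43 forkhead genes (39.5%) and 7 of 18 SOX genes (38.9%). A mean of at least 10 CPM was reached by 26 members (33.8%), where 40.8% of protein-coding genes did so, and at least 100 CPM by 10 members (13%), where 12.2% did. No count in any library was found for 38 members (49.4%), against 46.0% of protein-coding genes. As a whole the members were detected about as often as other genes, and the difference between the families' shares was not tested. The detected members had a median of 50.8 CPM, and all detected protein-coding genes one of 39.6 CPM. With genes below 1 CPM included, the median was 0.690 CPM over the 77 members and 1.46 CPM over all protein-coding genes.

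**Figure D1:**
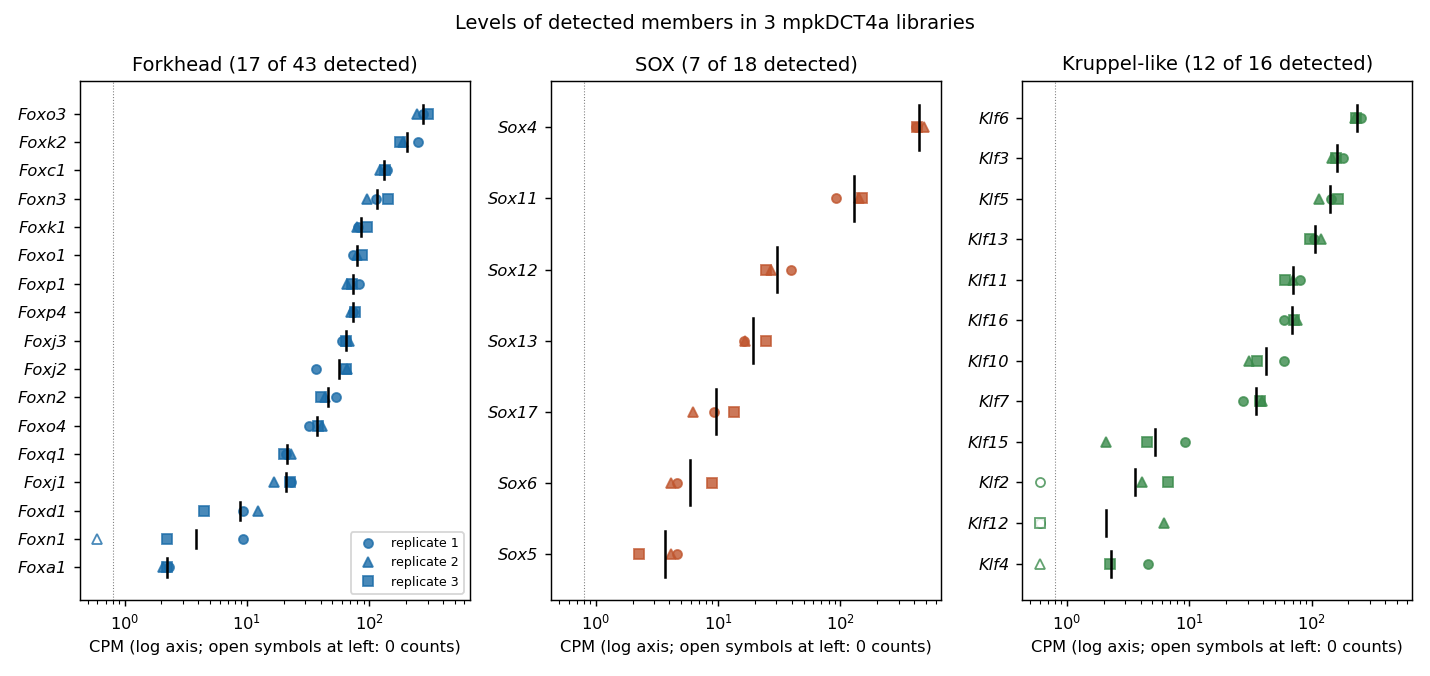
Level of each detected member in each library in CPM on a log axis, by family, with replicates as circles, triangles and squares, means as black bars and libraries with 0 counts as open symbols. Sox4 stands highest at 438 CPM, and the lowest detected members rest on 3 counts.

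The members together took 3834 counts, 0.281% of the total, unevenly spread among them. Sox4, Foxo3, Klf6, Foxk2 and Klf3 held 46.7% of these counts (exact binomial 95% interval 45.2 to 48.3), and the highest 10 members held 69.0%. Both sets were picked as the highest in these same counts, a choice that the interval leaves out. Forkhead genes took 46.2% of members' counts, Kruppel-like genes 31.2% and SOX genes 22.6%. In the 3 libraries the SOX share was 20.4%, 24.8% and 22.5%, and the Kruppel-like share 32.7%, 30.6% and 30.4%. When the 26 members of at least 10 CPM were put in order of level, 23 of the 25 neighbouring pairs had overlapping libraries. The exceptions were Sox4 above Foxo3 and Sox12 above Foxq1.

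FOXO factors made up the largest part of the forkhead signal, 30.1% of the family's counts (28.0 to 32.3). Foxo3, which acts in stress resistance and cell survival, had 120, 119 and 134 counts, or 274 ± 26.9 CPM (chromosome 10, 42181841 to 42276755, minus strand). Foxo1, a main target of insulin signalling in metabolism, had 32, 38 and 39 counts (80.0 ± 6.85 CPM), and Foxo4 14, 20 and 17 (37.3 ± 4.61 CPM). By counts the 3 genes kept apart in every library: each count of Foxo3 exceeded each of Foxo1, and each of Foxo1 exceeded each of Foxo4. In TPM, the level scaled for exon length, Foxo1 stood at 30.9, 33.7 and 37.4 and Foxo4 at 33.6, 44.1 and 40.6. On that scale Foxo1 lay below Foxo4 in each library, though their values overlapped across libraries. The order of Foxo1 and Foxo4 therefore rests on the exon length, and no counting interval was computed for that pair. Foxo6, the fourth member, had 0 counts. Foxo3 took 70.0% of FOXO counts (65.9 to 73.8). Foxo1 had 0.292 times the counts of Foxo3 (95% counting interval 0.234 to 0.363), and Foxo3 had 7.31 times those of Foxo4 (5.45 to 10.0), or 3.37 times per exon length.

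Genes that act on FOXO proteins were detected throughout, at 24 of 24, with a median of 126 CPM. The highest were the exportin Xpo1, which carries proteins out of the nucleus (516 ± 10.2 CPM), the 14-3-3 protein gene Ywhaz (510.1 ± 17.4 CPM) and the acetyltransferase Crebbp (398 ± 26.8 CPM). Of 20 genes that FOXO factors are known to activate 16 were detected, with a median of 34.2 CPM. The highest were those for the antioxidant enzymes catalase (Cat, 122 ± 6.53 CPM) and manganese superoxide dismutase (Sod2, 112 ± 6.58 CPM) and Sesn3, a sestrin that restrains mTOR signalling (111 ± 3.28 CPM). The liver and muscle targets G6pc and Trim63 had 0 counts, as did the death ligand gene Tnfsf10. FOXO activity itself was not measured.

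FOXK factors, which act on glycolysis and autophagy genes, held 22.3% of forkhead counts. Foxk2 had 108, 91 and 79 counts, or 205 ± 38.8 CPM (chromosome 11, 121259990 to 121309896, plus strand), and Foxk1 had 35, 38 and 43 (85.3 ± 9.64 CPM). Foxk1 lay below Foxk2 in every library, at 0.417 times its counts (0.333 to 0.520) and 0.289 times per exon length. Foxn3, a repressor linked to cell cycle checkpoints, had 49, 46 and 63 counts (116 ± 23.1 CPM), and Foxn2 had 23, 21 and 18 (45.6 ± 6.64 CPM). Foxn1, the thymic epithelial factor mutated in nude mice, had 4, 0 and 1 counts, and Foxn4, a retinal and spinal cord factor, had 0.

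FOXP factors pair through a leucine zipper and act as repressors. Foxp1 had 36, 32 and 32 counts (73.7 ± 8.57 CPM) and Foxp4 32, 34 and 34 (73.5 ± 2.89 CPM), so that both had 100 counts in all and their libraries overlapped. Their ratio was 1.00 with an interval of 0.750 to 1.33 on counts, but per exon length Foxp1 stood at 0.358 times Foxp4, since its merged exons span 13751 bases against 4926. Foxp2, known for its role in speech and motor circuits, and Foxp3, the regulatory T cell factor, had 0 counts. Set against 3 counts over all libraries for Foxp2, Foxp1 was 33.3-fold higher by counts and 39.6-fold per exon length. These folds leave out the counting error of Foxp1. Beside Foxp3, 2 of 10 leukocyte markers were detected, with summed levels of 37.3 to 62.7 CPM. They were Csf1r (45.8 ± 11.6 CPM) and Cd68 with 5 counts, and Ptprc and Cd3e were among the 8 at 0 counts.

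FOXJ genes were detected at 3 of 3. Foxj3 had 26, 33 and 29 counts (64.4 ± 4.20 CPM), Foxj2 had 16, 32 and 29 (56.0 ± 16.6 CPM) and Foxj1, the master regulator of motile cilia, had 10, 8 and 10 (20.7 ± 3.58 CPM). The libraries of Foxj2 and Foxj3 overlapped, and Foxj2 had 0.875 times the counts of Foxj3 (0.636 to 1.20), but 1.80 times per exon length (1.31 to 2.47). By counts Foxj1 was at 0.318 times Foxj3 (0.200 to 0.492), but per exon length the ratio was 1.33 with an interval of 0.837 to 2.06 that includes 1. The rest of the motile cilium program was mostly without counts: 3 of 19 genes were detected, namely Rfx3 (48.6 ± 16.1 CPM), Rfx2 (13.2 ± 0.731 CPM) and Ccdc39 with 2 counts. Rfx2 and Rfx3 encode factors that also serve immotile cilia. The upstream regulators Gmnc and Ccno and the axonemal genes Dnah5, Dnah9 and Hydin were at 0 counts. Without replicate 1 the number detected was 6 and without replicate 3 it was 7, because with 2 libraries a single count passes 1 CPM.

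**Figure D2:**
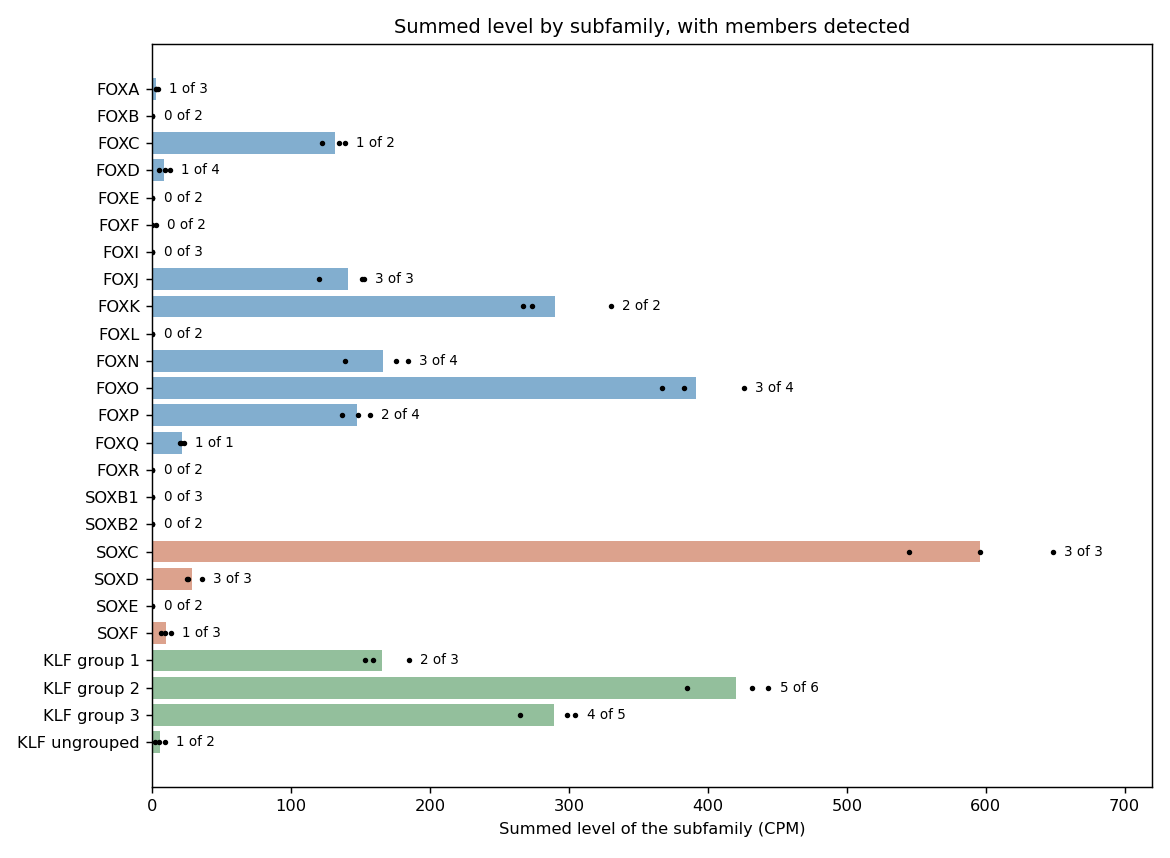
Summed CPM by subfamily, without subfamilies of a single gene that had 0 counts, as the mean (bar) and the 3 libraries (points), with the number of members detected written beside each bar. FOXO, FOXK, SOXC and the Kruppel-like groups 2 and 3 carry the most signal, and FOXB, FOXE, FOXI, FOXL, SOXB and SOXE, among others, none.

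Subfamilies O, K, N, P and J together took 87.3% of forkhead counts (85.6 to 88.8). Outside them the forkhead genes detected were Foxc1, Foxq1, Foxd1 and Foxa1. Foxc1, a factor of eye, kidney and skeletal development, took another 10.1%, with 60, 59 and 60 counts (132 ± 8.46 CPM). Foxq1, an epithelial factor known from the hair defect of satin mice, had 9, 11 and 9 counts (21.2 ± 1.37 CPM). Foxd1, which marks the stromal progenitors of the embryonic kidney, had 4, 6 and 2 counts (8.71 ± 4.00 CPM). The endodermal pioneer factor Foxa1 had 1 count in each library, and Foxa3 and Foxf1 each had 1 in all. The 24 forkhead genes with 0 counts included Foxa2, both FOXB genes, Foxc2, Foxd2, Foxd3, Foxd4, both FOXE genes, Foxf2, Foxh1, both FOXL genes, both FOXR genes and Foxs1. Foxi1, which drives intercalated cell genes, was among them with Foxi2 and Foxi3, and 0 of 7 intercalated cell markers, among them Atp6v1b1 and Slc26a4, had a count.

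Neighbouring forkhead genes differed in counts in the cluster on chromosome 13, while those of its paralog on chromosome 8 had 0 or 1 count each. On chromosome 13 (GRCm38) Foxq1 (31556134 to 31560976), Foxf2 (31625816 to 31631403) and Foxc1 (31806633 to 31812476) lie on the plus strand within 256 kb. They had 29, 0 and 179 counts, so the middle gene had none between a pair of detected neighbours. Foxq1 stood at 0.162 times the counts of Foxc1 (0.106 to 0.241), and at 0.196 times per exon length. The paralogous cluster on chromosome 8 holds Foxf1 (121084386 to 121088144), Foxc2 (121116171 to 121118895) and Foxl1 (121127940 to 121130644) within 46.3 kb, with 1, 0 and 0 counts. Set against 3 counts for its paralog Foxc2, Foxc1 was 59.7-fold higher by counts and 27.8-fold per exon length. These folds leave out the counting error of Foxc1. Mthfsd, which lies between Foxf1 and Foxc2, had 8, 10 and 8 counts (19.0 ± 1.48 CPM), and Gm20388, whose annotated span covers the whole cluster, had 0.

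**Figure D3:**
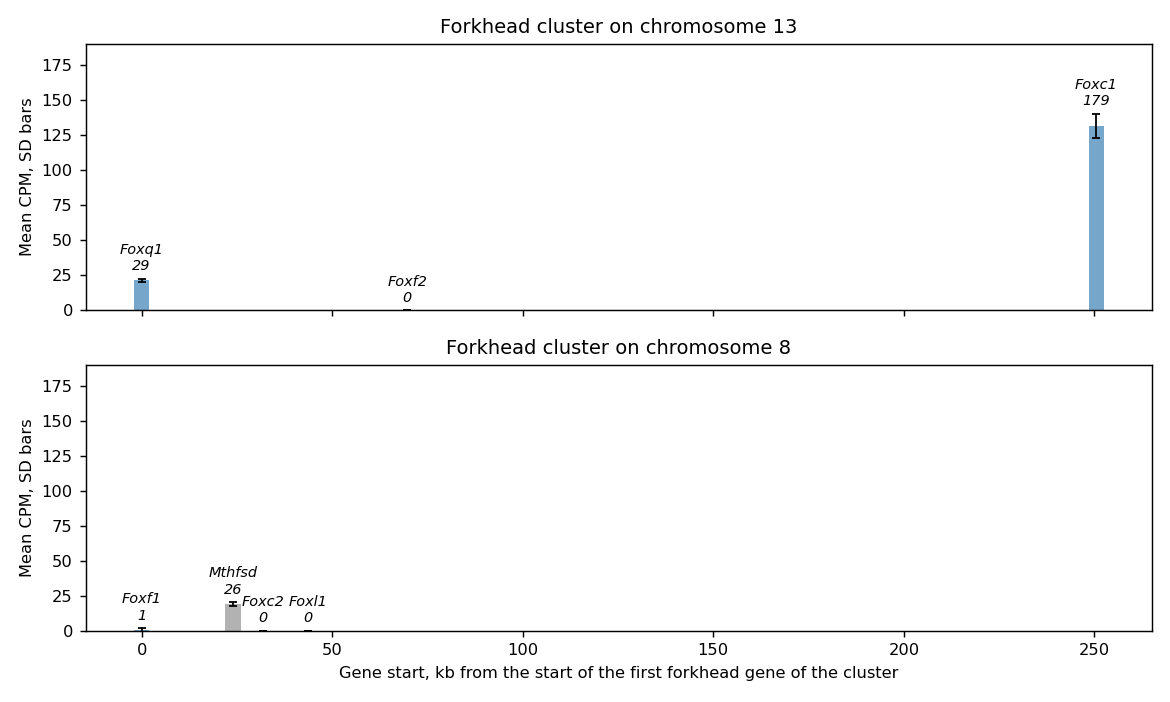
Mean CPM with SD bars over 3 libraries for the forkhead genes of both clusters and Mthfsd, placed by distance of their starts in kb from the first forkhead gene, with forkhead genes in blue, Mthfsd in grey and summed counts written above. A530084C06Rik, which overlaps Foxq1 and had 3 counts, and Gm20388, which spans the chromosome 8 cluster and had 0, are left out. Foxc1 and Foxq1 carry the signal, while Foxf2 and the forkhead genes on chromosome 8 have 0 or 1 count.

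SOXC genes took nearly the whole SOX signal, 94.0% of its counts (92.2 to 95.5), and between 92.4% and 95.4% in the single libraries. Sox4, which acts in progenitor survival and nephron formation, had 179, 231 and 188 counts, or 438 ± 35.6 CPM (chromosome 13, 28948919 to 28953713, minus strand), and lay above 98.7% of protein-coding genes. Sox11, its partner in kidney and neural development, had 40, 69 and 67 counts (128 ± 31.5 CPM), with replicate 1 lower than the others. Sox12, a weaker activator of the same group, had 17, 13 and 11 counts (30.3 ± 7.84 CPM). The 3 genes did not overlap in any library. Sox4 had 3.40 times the counts of Sox11 (2.87 to 4.04) and 5.89 times per exon length, and 14.6 times the counts of Sox12 (10.6 to 20.5).

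SOXD genes, which lack an activation domain of their own, were detected at 3 of 3 but low. Sox13 had 7, 8 and 11 counts (19.1 ± 4.79 CPM), and the cartilage factors Sox6 and Sox5 had 8 and 5 counts in all. Sox6 was at 0.308 times the counts of Sox13 (0.120 to 0.700). The ratio of Sox5 to Sox6 was 0.625, with 1 inside its interval of 0.161 to 2.17. Of the SOXF genes, Sox17, an endodermal and endothelial factor, had 4, 3 and 6 counts (9.63 ± 3.63 CPM), while its endothelial relatives Sox7 and Sox18 had 0. Beside Sox17, 3 of 9 endothelial markers were detected, led by Flt1 (10.3 ± 0.989 CPM), with summed levels of 13.4 to 16.6 CPM per library. The defining genes Pecam1, Cdh5, Kdr and Tek were at 0 counts.

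No count was found for 11 SOX genes. They were Sox1, Sox2 and Sox3 of stem and neural cells, the neural genes Sox14 and Sox21, Sox8 and the neural crest factor Sox10, Sox7 and Sox18, Sox15, and Sox30, which acts in sperm formation. Per exon length 0 counts leave less open in a long gene than in a short one: over the 38 members without counts the limit ran from 0.496 TPM, the level scaled for exon length, for Foxp2 to 9.42 TPM for Sox15. Of 8 neural crest and glial markers 4 were detected, led by the growth factor receptor gene Erbb3 (89.7 ± 20.2 CPM), with summed levels of 128 to 168 CPM, and S100b and Tyr were at 0 counts. Of 14 genes known to work with SOX proteins 7 were detected, led by β-catenin (Ctnnb1, 652 ± 34.2 CPM), while 4 POU factor genes, among them Pou5f1, and Pax6, Gata4 and Nr5a1 had 0 counts. Of 14 other genes with a high mobility group box 9 were detected, led by Bbx (167 ± 20.1 CPM), Tox4 (139.9 ± 8.03 CPM) and the repressor Cic (130.2 ± 13.2 CPM). The shares detected were 50.0% of the markers, 50.0% of the SOX partners and 64.3% of these genes, against 50.6% of all protein-coding genes.

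Kruppel-like genes fall into groups by their partners. Group 2, the activators that bind acetyltransferases, held 47.7% of the family's counts (44.8 to 50.6). Klf6, a growth and injury response factor, had 110, 109 and 103 counts, or 237 ± 15.0 CPM (chromosome 13, 5861482 to 5870394, plus strand). Klf5, which drives proliferation of epithelia, had 63, 56 and 74 (142 ± 25.0 CPM), and Klf7 had 12, 19 and 17 (35.0 ± 6.40 CPM). Each library of Klf6 lay above each of Klf5, and each of Klf5 above each of Klf7. Klf4, a differentiation and reprogramming factor, had 2, 0 and 1 counts, and Klf2, the flow-responsive endothelial factor, had 0, 2 and 3. Klf4 was at 0.0155 times the counts of Klf5 (0.00320 to 0.0461). Klf6 had 6.71 times those of Klf7 (4.94 to 9.29). Klf1, which drives globin genes in red cells, had 0 counts, as had 6 of 6 erythroid markers.

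Group 1, the repressors that recruit CtBP, was carried by a single gene. Klf3 had 79, 71 and 71 counts, or 163 ± 17.9 CPM (chromosome 5, 64803388 to 64832901, plus strand), and its relatives Klf12 and Klf8 had 3 and 1 counts. Klf3 had 73.7 times the counts of Klf12 (24.9 to 359.9) and 221 times those of Klf8 (39.3 to 8768). Klf12 (99870632 to 100284679) and Klf5 (99298691 to 99315036) lie on the same chromosome, 14, and stood at 3 and 193 counts.

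Group 3, the repressors that recruit Sin3A, was detected at 4 of 5 members and held 32.9% of the family's counts (30.3 to 35.7). Klf13 had 45, 58 and 43 counts (107 ± 12.2 CPM), Klf11 35, 34 and 27 (70.5 ± 10.1 CPM), Klf16 26, 37 and 32 (69.4 ± 8.54 CPM) and Klf10, an early response gene of TGF-beta, 26, 15 and 16 (42.3 ± 15.5 CPM). Klf14, an intronless imprinted gene, had 0 counts. Klf10 was at 0.594 times the counts of Klf11 (0.420 to 0.833). Klf13 had 1.54 times those of Klf16 (1.18 to 2.01), but per exon length the order turned, to 0.546 (0.419 to 0.714), so which is the more abundant message rests on the exon length. Outside the groups, Klf15, known to be induced by glucocorticoids, had 4, 1 and 2 counts (5.26 ± 3.64 CPM) in this medium with dexamethasone, and Klf17 had 0.

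Partners of the Kruppel-like factors were detected at 16 of 17, with a median of 85.7 CPM. The highest were the acetyltransferase genes Crebbp, given above, and Ep300 (233 ± 12.7 CPM) and the deacetylase gene Hdac2 (209 ± 20.3 CPM), and Mef2c, which acts upstream of Klf2 in endothelium, had 0 counts. The related SP factors, which read the same GC-rich sequences, were detected at 5 of 9 (55.6%, against 50.6% of all protein-coding genes). They were led by Sp1 (389 ± 53.2 CPM) and Sp3 (168 ± 39.4 CPM), and Sp5, Sp6 and Sp9 had 0 counts.

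**Figure D4:**
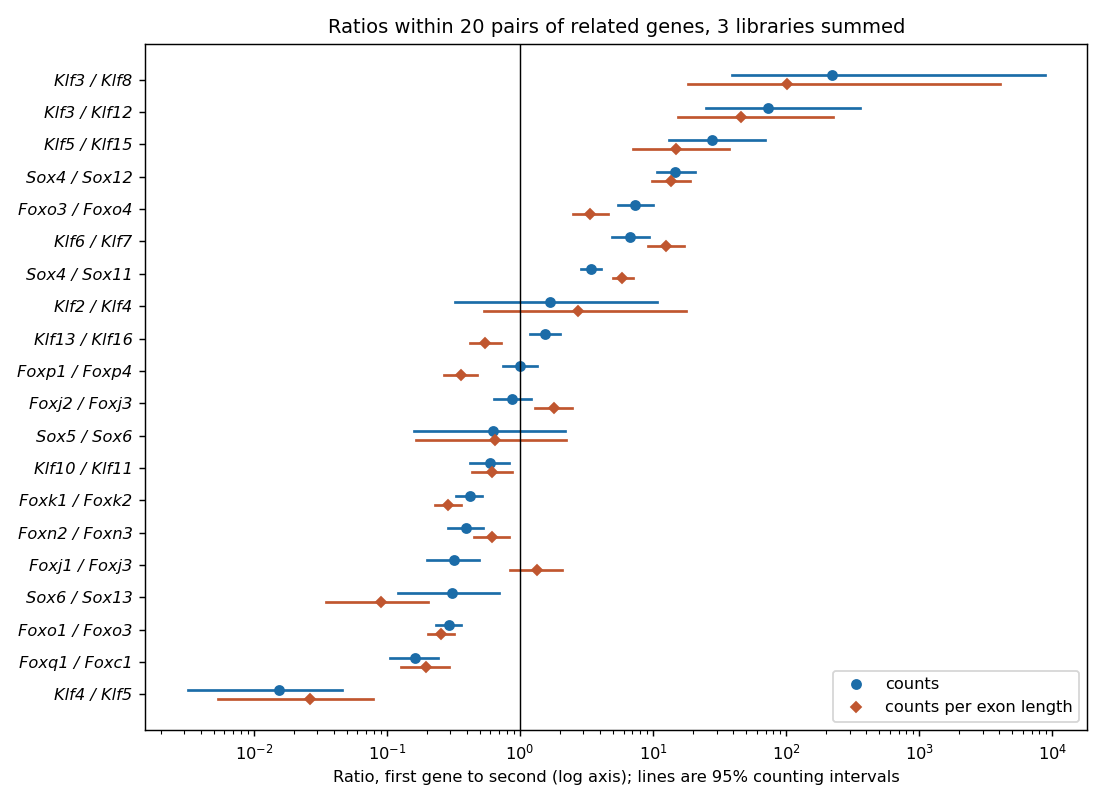
Ratios of summed counts (circles) and of counts per exon length (diamonds) within 20 pairs of related genes that both had counts, on a log axis with 95% counting intervals. The Klf13 to Klf16 ratio changes side when divided by length, from 1.54 to 0.546.

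Over the 29 pairs of related genes compared, 3 had 0 counts on both sides. Of the other 26, 21 had the same direction in all 3 libraries. Where 1 gene of a pair had 0 counts throughout, as in Foxc1 to Foxc2, the direction could not reverse. Foxa1 to Foxa2 rested on 3 counts against 0, and some genes, such as Foxo3, are in more than 1 pair. An exact two-sided sign-flip permutation test over 3 libraries cannot give a p below 0.25, which these 21 pairs reached, so it can call none at 0.05, and adjustment over the pairs cannot lower it. Of the 20 pairs with counts on both sides, the counting interval excluded 1 in 16 by counts and in 17 per exon length, and these intervals leave out any spread beyond counting. In 3 pairs the ratio lay on the other side of 1 per exon length.

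Division by exon length also reordered the members. In TPM the highest were Sox4 (336 ± 30.1), Klf6 (198 ± 9.90), Foxk2 (143 ± 25.1), Foxo3 (133.5 ± 13.3) and Klf5 (100.8 ± 17.8). Klf16, whose exons span 2674 bases, moved from place 16 to place 6 with 95.7 ± 12.9 TPM, and Foxp1 moved from place 13 to place 23. Sox4 was first on both scales.

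The replicates gave members levels that lay close to counting error. When the libraries' counts were tested gene by gene for spread beyond counting (chi-square, Benjamini-Hochberg adjustment over the 12473 genes of at least 1 CPM), 0 of 36 members were called, against 0.0401% of all genes tested, and the smallest adjusted p among members was 0.902. Without adjustment 2 members passed 0.05, Sox11 and Foxk2, where 4.89% of all genes passed. An exact multinomial test also called 0, with 3 members passing 0.05 unadjusted. By that exact test the unadjusted p was 0.0282 for Sox11, lowest in replicate 1, 0.0425 for Foxk2, highest in replicate 1, and 0.0294 for Foxn1 with its 5 counts. Over the 26 members of at least 10 CPM the coefficient of variation ran from 3.94% to 36.7%, with a median of 12.3%. The relative SD set by counting error, the root of 3 over the summed count, had a median of 17.3%. An SD of 3 values falls below its true size more often than above, so these 2 medians are not like measures. In simulated counts this test recovered 32% of genes changed 2-fold in 1 library and 73.5% of those changed 4-fold, so many differences of that size would be missed at this depth.

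Gene structure went along with detection in the pooled members as in other genes, though less so in SOX genes. Of 20 members with a single exon 5 were detected, against 31 of 57 with more exons, and among all protein-coding genes the shares were 18.4% and 52.6%. They were 23.1% and 46.7% in forkhead genes and 33.3% and 41.7% in SOX genes. Only 1 Kruppel-like gene has a single exon, and 80% of those with more exons were detected. The 5 detected members with a single exon were Sox4, Foxc1, Sox11, Foxq1 and Foxd1, so the highest member of all is a gene without introns. Some members share sequence with an overlapping gene. Of the 50-base stretches of Sox4, 54.1% occur on either strand in a transcript of another gene, as do 65.7% of those of Foxq1 and 38.2% of those of Klf7. Genes on the opposite strand overlap their exons by 2616, 3200 and 3196 bases. The sources used here do not state the strand setting of the count, so these 3 counts are uncertain. The gene opposite Foxq1, A530084C06Rik, had 3 counts. Those with the long overlaps opposite Sox4 (Gm26735) and Klf7 (Gm26649) are not among the genes of the count table.

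Promoters were read to see what members with and without counts share. RefSeq promoter windows of GRCm38.p6, from 250 bases before to 50 after a gene's start, were matched by symbol for 53 members, and 47 lay within 1000 bases of the GENCODE gene start. The 22 detected members had a median of 32 CG dinucleotides per window, where all 8073 detected protein-coding genes had 22. The 23 members with 0 counts had a median of 21, whereas all 6170 protein-coding genes below 1 CPM had 5. So members with 0 counts, pooled, had a median close to that of detected genes in general, over a range of 3 to 37. The families differed. Forkhead genes had medians of 32 when detected and 16 below 1 CPM. In SOX genes the order was the other way, at 21 and 26. Kruppel-like genes had 32 and, in the 3 below 1 CPM, 5. The median GC content was 69.8% in detected members and 65.3% in those with 0 counts.

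Sequences of a detected member and a relative with 0 counts are shown for each family. Their windows run from 3 CG in Klf1 to 32 in Foxc1, where the windows of all 47 members run from 3 to 59. Each sequence is the part of the window before the gene's start in both annotations, 5′ to 3′ on the gene's strand, with CG in capitals. Foxc1 (chr13:31806396-31806632, plus strand, 179 counts) and its cluster neighbour Foxf2 (chr13:31625566-31625815, plus strand, 0 counts) had 32 and 27 CG in their windows. Sox4 (chr13:28953714-28953949, minus strand, 598 counts) had 12 and Sox14 (chr9:99876171-99876420, minus strand, 0 counts) had 26. Klf6 (chr13:5861239-5861481, plus strand, 322 counts) had 23 and Klf1 (chr8:84901732-84901927, plus strand, 0 counts) had 3.
Foxc1: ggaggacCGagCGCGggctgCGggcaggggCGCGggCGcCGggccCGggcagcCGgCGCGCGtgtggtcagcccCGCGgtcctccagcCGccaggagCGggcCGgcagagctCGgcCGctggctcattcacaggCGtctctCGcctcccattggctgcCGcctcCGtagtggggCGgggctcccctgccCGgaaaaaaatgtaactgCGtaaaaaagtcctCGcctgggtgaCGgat
Foxf2: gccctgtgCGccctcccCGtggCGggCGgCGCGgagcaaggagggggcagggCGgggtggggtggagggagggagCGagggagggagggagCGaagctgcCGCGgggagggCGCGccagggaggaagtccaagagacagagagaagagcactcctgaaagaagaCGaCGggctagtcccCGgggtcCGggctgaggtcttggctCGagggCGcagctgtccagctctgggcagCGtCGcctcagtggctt
Sox4: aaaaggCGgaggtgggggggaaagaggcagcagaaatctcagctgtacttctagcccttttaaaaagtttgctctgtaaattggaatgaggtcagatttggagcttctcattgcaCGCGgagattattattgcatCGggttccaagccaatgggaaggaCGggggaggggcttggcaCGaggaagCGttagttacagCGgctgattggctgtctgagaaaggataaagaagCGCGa
Sox14: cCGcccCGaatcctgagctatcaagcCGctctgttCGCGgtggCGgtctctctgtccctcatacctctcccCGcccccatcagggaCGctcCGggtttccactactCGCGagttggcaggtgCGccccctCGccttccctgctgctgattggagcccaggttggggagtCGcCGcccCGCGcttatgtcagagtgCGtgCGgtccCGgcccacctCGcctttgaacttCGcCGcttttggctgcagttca
Klf6: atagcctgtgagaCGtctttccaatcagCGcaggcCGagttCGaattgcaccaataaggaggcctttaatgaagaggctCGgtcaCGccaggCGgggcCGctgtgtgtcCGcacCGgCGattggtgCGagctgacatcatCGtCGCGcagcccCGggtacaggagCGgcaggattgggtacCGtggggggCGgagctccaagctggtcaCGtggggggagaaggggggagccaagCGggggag
Klf1: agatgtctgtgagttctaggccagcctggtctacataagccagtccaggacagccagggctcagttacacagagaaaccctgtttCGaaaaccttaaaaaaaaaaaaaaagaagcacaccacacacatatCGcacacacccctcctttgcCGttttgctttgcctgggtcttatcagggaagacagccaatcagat

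The sequences printed, which are shorter than the windows, hold 29 CG for Foxc1 and 21 for Foxf2, 10 for Sox4 and 23 for Sox14, and 21 for Klf6 and 3 for Klf1. The gene with counts has more CG in the forkhead and Kruppel-like pairs and fewer in the SOX pair. Short motifs were counted on both strands of the 47 windows and set beside all 14243 protein-coding windows of the same length. The GC box GGGCGG was in 36 member windows (76.6%) against 51.8% of all, and the CACCC box, searched as GGGTG, in 30 (63.8%) against 61.1%. These motifs can overlap at their G runs. Among detected genes GGGCGG was in 86.4% of member windows and 69.1% of all, and below 1 CPM in 68.0% and 29.1%. Member windows were also richer in GC, with a median of 65.7% against 58.0%. Whether the GGGCGG share goes beyond GC content was not tested. The forkhead motif GTAAACA was in the windows of Foxa1 and Sox12 (4.26% against 2.80%), the SOX motif AACAAT in that of Klf8 (2.13% against 7.85%) and the TATA motif TATAAA in that of Foxa3 (2.13% against 11.3%). A match is a run of letters and no evidence of binding.

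**Figure D5:**
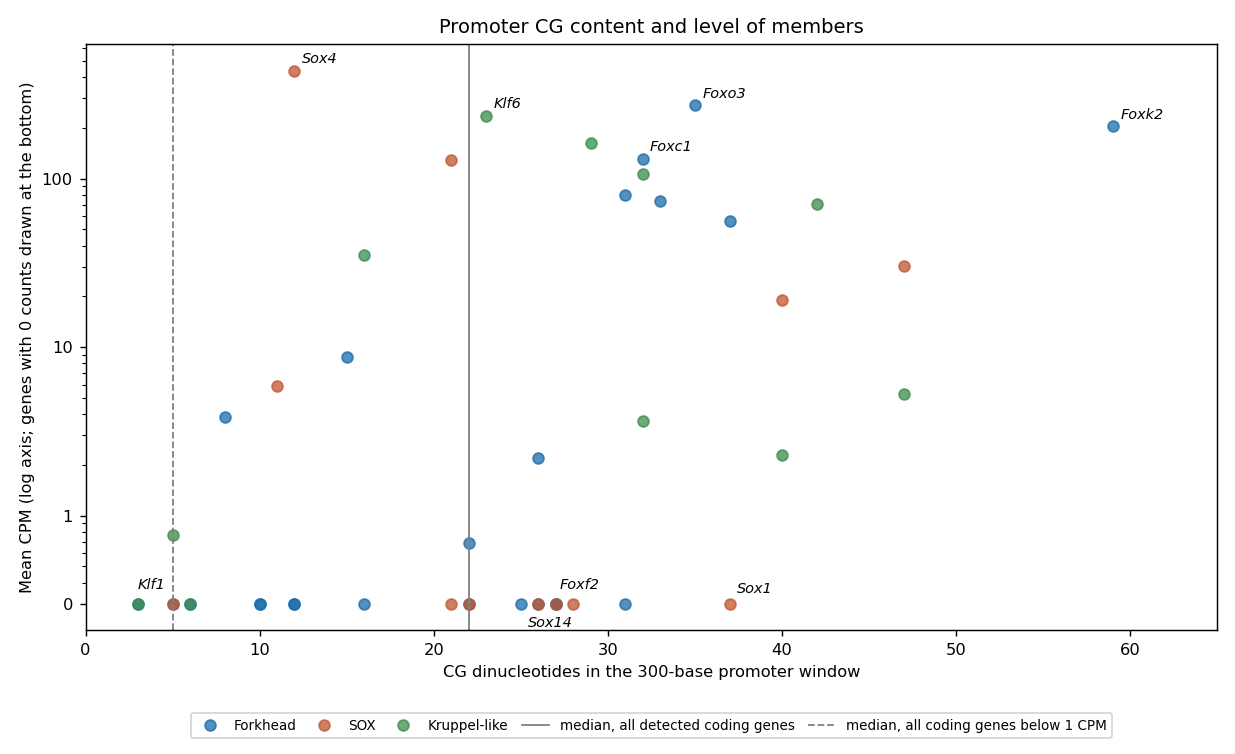
CG dinucleotides in the 300-base promoter window (horizontal axis) and mean CPM on a log axis (vertical) for 47 members, coloured by family, with genes at 0 counts drawn at the bottom. Vertical lines mark the medians of all detected protein-coding genes (22) and of all below 1 CPM (5), and most members with 0 counts lie to the right of the lower line.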

How the data were processed

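The 3 mpkDCT4a libraries were each made from 500 ng of total RNA, depleted of ribosomal RNA and fragmented to about 300 bp, per the labels' protocols. The deposited table holds raw counts of reads per Ensembl gene. Per the submitters' processing notes, tools included STAR and HTSeq, with the build mm10. The sources used here do not state versions, annotation, strand setting or how multiply aligned reads were handled. Columns were matched to replicates by the number in their names.

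GENCODE M21 named 55227 of 55487 identifiers (the other 260 held 0.0230% of counts). Library sizes were totals of 436983 to 482418 counts times TMM factors (edgeR 4.0.16, R 4.3.3). TPM used merged exon length. Ratios against 0 counts used 3 counts over all libraries. The edgeR biological coefficient of variation was 0.0392 over 12473 genes. Tests ran in Python 3.11.15 with scipy 1.17.1, and of them only the chi-square test was tried on simulated data. Pair ratios within a library used a pseudocount of 0.5 CPM.

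Members, lists and pairs were chosen with earlier results of these data known. By rule, members of at least 10 CPM are named with their 3 counts, and lower ones by summed count or name. Of the other lists, the highest 3 genes and those at 0 counts may be named. Counts per library of lower members and the genes Mthfsd, Gm20388 and A530084C06Rik were added after values were seen. Promoters, clusters and exon structure were chosen after values were seen. Alternatives were DESeq2 1.42.0 size factors, library totals, other thresholds, TPM, other pseudocounts, an exact test and leaving out each replicate. Some single genes are not reported here.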

Additional observations from a re-analysis of the deposited data

How the results depend on the processing

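The number of members detected stayed at 36 with DESeq2 size factors or library totals, was 30 at 5 CPM, 39 at 0.5 CPM, 32 when every library had to hold a count and 37 at 1 TPM, and 37 to 38 without 1 replicate. No member passed the test of the spread under any of the 8 alternatives, with 1 to 4 at an unadjusted p under 0.05. Levels of the 26 members of at least 10 CPM moved by less than 1 SD in the 130 recalculations run. Those without 1 replicate are no check, since a mean of 3 values can hardly move by 1 SD of those values when 1 is left out. The others used DESeq2 size factors or library totals. On the TPM scale the mean log2 ratio turned for Foxj1 to Foxj3 (from -1.63 to 0.40), Klf13 to Klf16 (from 0.62 to -0.87) and Foxj2 to Foxj3 (from -0.25 to 0.78), as exon length enters it. The motile cilium list had 3 to 7 genes detected without 1 replicate, and at 5 CPM the endothelial, leukocyte and fibroblast marker lists had 1, 1 and 2. The depth of 436983 to 482418 counts per library limits statements on members below 10 CPM. No paired analysis was possible because the samples form 1 group.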
